A study of Mus musculus with 21 samples.

Results

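This report describes 8 genes for amino acid transporters of the plasma membrane, Slc7a1, Slc7a3, Slc7a5, Slc3a2, Slc6a9, Slc38a2, Slc1a4 and Slc1a5, in MIN6m9 cells, a mouse beta cell line of insulinoma origin. They were chosen by name, and were found through the RefSeq accession of their array probes, as 8 of 20141 genes with a symbol on the array. Expression was measured on 21 one-colour Agilent arrays in 2 experiments. In the first, wild-type cells received 400 uM palmitate for 48 h, 400 uM oleate for 48 h, or neither, with 3 arrays a group; palmitate is a saturated and oleate a monounsaturated fatty acid. In the second, cells of genotype Fv2E-PERK were given 1 nM AP20187 over 6, 12, 24 or 48 h or only a mock treatment (ethanol per the labels), and a last group was mock-treated wild-type cells, with 2 arrays a group. Fv2E-PERK is a transgenic PERK kinase that dimerises, and so becomes active, when AP20187 is added; the sources used here do not give the promoter that drives it, the number of clones, or when untreated and mock cells were harvested. Wild-type cells given AP20187 are not analysed here, so an effect of AP20187 itself cannot be told apart from that of the kinase. The labels do not say whether replicates were separate cultures; the p-values thus measure only how far these samples spread, which may be technical.

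Amino acid transporters set how fast a cell takes up building blocks for protein synthesis, and in beta cells the entry of charged or sodium-coupled amino acids also depolarises the membrane and adds to insulin secretion. PERK phosphorylates eIF2alpha, which slows general translation and favours translation of ATF4, and this chain is called the integrated stress response (ISR). ATF4 is known to raise genes for amino acid uptake and synthesis, among them several of the transporters described here. Slc3a2 encodes the 4F2hc heavy chain (CD98), the partner that brings Slc7a5 and related light chains to the surface, and Slc7a5 encodes LAT1, which exchanges large neutral amino acids such as leucine. Slc7a1 and Slc7a3 encode CAT-1 and CAT-3, carriers of arginine and lysine. Slc6a9 encodes GlyT1, a sodium- and chloride-coupled glycine transporter. Slc38a2 encodes SNAT2, a sodium-coupled carrier of small neutral amino acids, and Slc1a4 and Slc1a5 encode ASCT1 and ASCT2, exchangers of alanine, serine, cysteine and, for ASCT2, glutamine.

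Signals are given as log2 of the processed intensity relative to the 75th percentile of the array, so that 1 unit is a doubling and 0 is the percentile itself. A gene rose or fell where limma's p, adjusted over all entries tested, was under 0.05, and errors after ± are standard errors of a log2 change unless marked SD. The signal at the percentile was 336 to 459 on the fatty acid arrays and 380 to 823 on the PERK arrays, and all 8 genes were well above background on 21 of 21 arrays. The number of arrays limits the precision, and a probe's level is not set against that of another gene's probe. Insulin transcripts, the markers of the labelled cell type, were high in every group (group means of 9.33 to 10.05 for Ins1 and 8.68 to 9.37 for Ins2). The 12 beta cell markers had a summed linear signal of 1920 to 2200 with palmitate, 1860 to 2060 with oleate and 1970 to 2150 in untreated cells. Of these markers, 6 fell and 0 rose with palmitate against untreated, where 12.6% of all entries fell and 7.42% rose. Against oleate, 4 fell and 0 rose with palmitate, where 6.27% of entries fell and 7.48% rose. With oleate against untreated 0 passed, where 0.836% of entries passed. Replicates correlated at 0.978 to 0.996 across entries, which are not independent; the array of untreated replicate 2 stood apart, with SDs of 0.688 and 0.665 for its log2 differences from the other untreated arrays, against 0.290 to 0.390 for other pairs.

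The choice of scale bears on every direction below. Scaling on 7 spike-in probes instead of the percentile raised the median log2 change of all entries by 0.181 for palmitate against untreated and by 0.665, 0.725, 0.931 and 0.585 at 6, 12, 24 and 48 h against mock, and changed the share of calls that were higher from 37.0% to 87.6% for palmitate and from 38.4% to 89.4% at 6 h, 40.1% to 88.0% at 12 h, 40.1% to 93.5% at 24 h and 44.0% to 88.4% at 48 h. The same share moved from 39.9% to 75% for oleate against untreated, 54.4% to 93.0% for palmitate against oleate, 48.9% to 94.3% for 12 against 6 h, 54.5% to 72.8% for 24 against 12 h, 52.6% to 22.7% for 48 against 24 h and 46.1% to 75.8% for Fv2E-PERK mock against wild-type mock. The authors' deposited series matrix lowered that median by 0.226 for palmitate against untreated. The slides named in the file headers are a further limit. Palmitate replicate 3 was alone on its slide, and the other 8 fatty acid arrays shared one. Fv2E-PERK mock and the 6, 12 and 24 h arrays shared a slide, while the 48 h and wild-type mock arrays shared another, so 48 h against Fv2E-PERK mock, 24 h or 6 h, and Fv2E-PERK mock against wild-type mock, cannot be told apart from the slide.

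With palmitate, 7 of the 8 transporters rose and 0 fell relative to untreated cells, where 20.1% of all 21281 entries tested passed, 7.42% as higher and 12.6% as lower. The median log2 change of the 8 was 0.57, and that of all entries was -0.05. The cationic carrier Slc7a3, the glycine transporter Slc6a9 and the neutral exchanger Slc1a5 had log2 changes of 1.49 to 2.24, and Slc7a1, Slc3a2, Slc7a5 and Slc38a2 had changes of 0.35 to 0.64. The neutral exchanger Slc1a4 did not pass. The 7 rises had the same direction on all 4 other scales tried, but with the deposited matrix values only Slc7a3, Slc6a9 and Slc1a5 passed.

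Slc7a3 signal was 5.16, 5.24 and 5.29 on the palmitate arrays and 2.85, 3.06 and 3.05 on the untreated arrays. Every palmitate array stood above every untreated array. The log2 change was 2.24 ± 0.08 (adjusted p = 5.2e-06), a 4.74-fold difference, and it ranked 91st of 21281 entries. For Slc6a9 the palmitate arrays gave 3.43, 3.5 and 3.45, against 1.86, 1.93 and 1.82 on the untreated arrays. The spread within each group was small beside the gap between them, and the change was 1.59 ± 0.05 (adjusted p = 2.1e-06). Slc1a5 signal reached 1.28, 1.06 and 1.22 with palmitate, against -0.18, -0.50 and -0.24 in untreated cells. These ranges were also apart, with a change of 1.49 ± 0.10 (adjusted p = 8.8e-05).

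The remaining 4 rises were smaller. Slc7a1 was at 4.68, 4.74 and 4.64 with palmitate, against 3.92, 4.18 and 4.05 in untreated cells, a change of 0.64 ± 0.07 (adjusted p = 0.0011). Slc3a2, the heavy chain, had 5.59, 5.62 and 5.66 with palmitate, against 5.23, 5.09 and 5.03 without, a change of 0.51 ± 0.06 (adjusted p = 0.0016). Its partner Slc7a5 had 2.88, 2.82 and 2.70 with palmitate and 2.31, 2.37 and 2.45 in untreated cells, a change of 0.43 ± 0.07 (adjusted p = 0.0045). In each of these genes no palmitate array overlapped an untreated one. Slc38a2 had 4.42, 4.42 and 4.4 with palmitate, against 4.16, 4.01 and 4.01 in untreated cells, a change of 0.35 ± 0.05 (adjusted p = 0.0041). Slc1a4 had 2.70, 2.85 and 2.87 with palmitate and 2.58, 2.75 and 2.66 in untreated cells. Its ranges overlapped, and its change of 0.15 ± 0.07 (adjusted p = 0.16) did not pass.

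**Figure D1:**
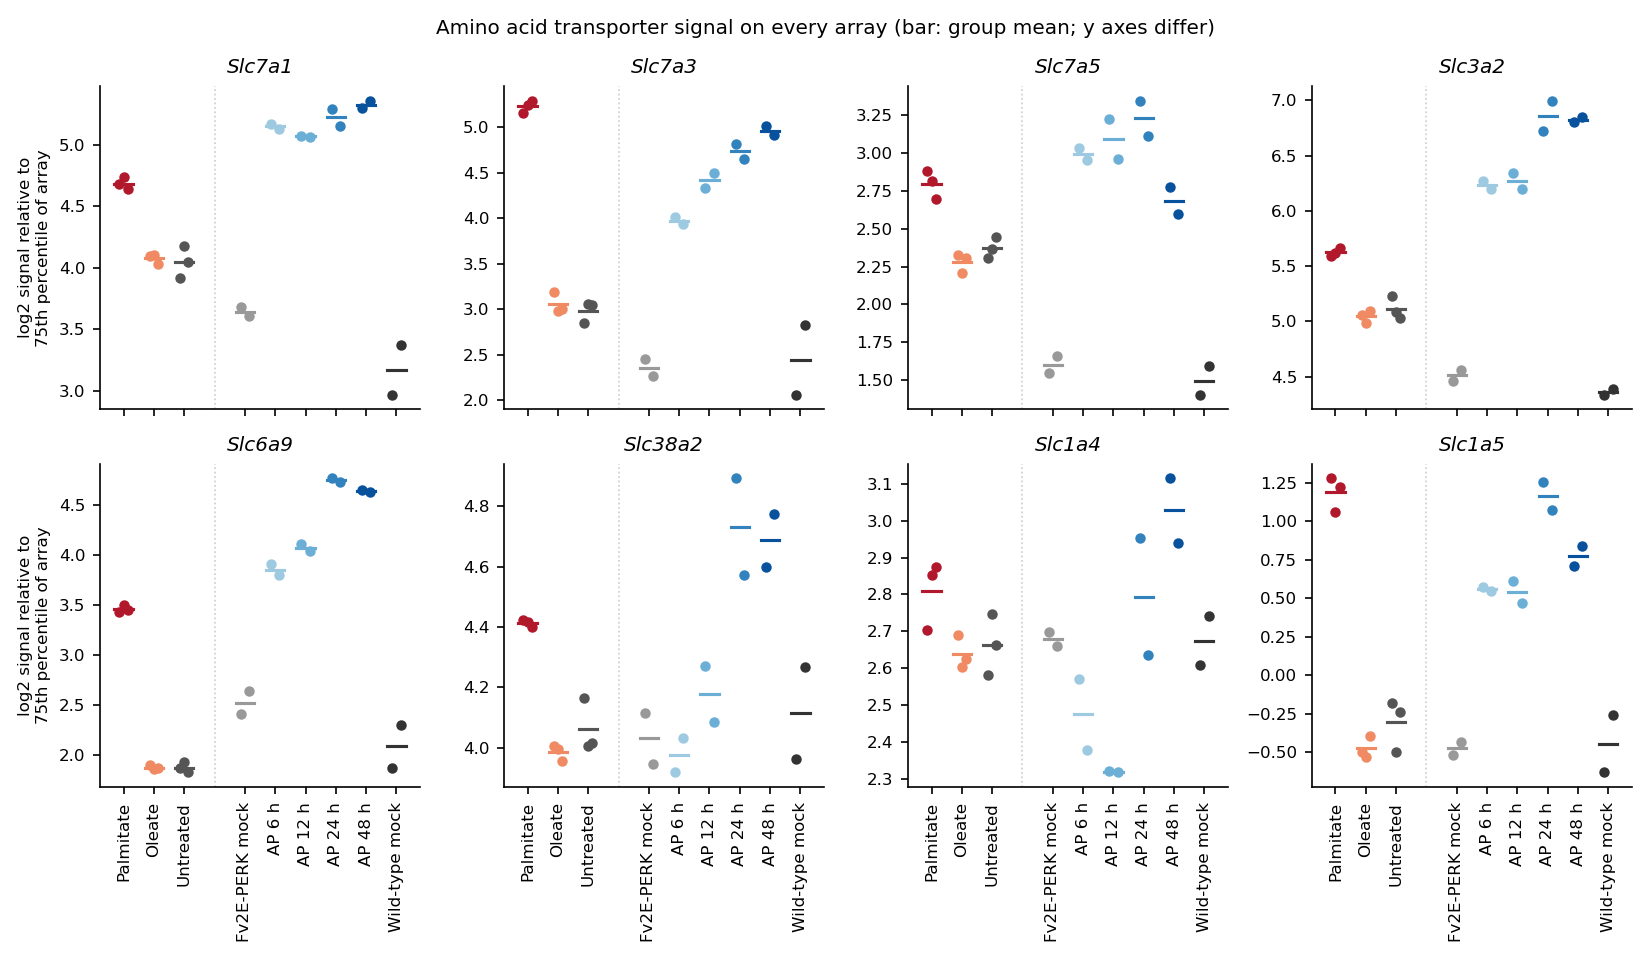
Log2 signal relative to the 75th percentile of the array (y axis, a scale of its own in each panel) of the 8 transporters on 21 arrays, by group (x axis; AP is AP20187). Points are arrays and bars are group means. Palmitate arrays stand above all untreated arrays in 7 panels, and the 48 h arrays stand above the Fv2E-PERK mock arrays in all 8. The share of all entries with ranges apart is not given.

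Transcripts that mark other cell types differed between these arrays, although all samples are labelled as MIN6m9 cells. Where these transcripts came from cannot be told from such bulk samples. Fewer cells of a type and less RNA per cell cannot be told apart either. The 9 heart muscle markers had a summed signal, on the linear scale relative to the percentile, of 0.888 to 1.65 with palmitate, 10.2 to 11.7 with oleate and 8.76 to 11.6 in untreated cells, and 2 to 5, 8 to 9 and 8 of the 9 were well above background. The heart myosin Myh6 averaged -4.85 with palmitate, 1.67 with oleate and 1.38 in untreated cells. Not all heart markers went that way. Of 8 tested, 4 fell and 1 rose with palmitate against untreated, where 12.6% of all entries fell and 7.42% rose. Against oleate 4 also fell and 1 rose, where 6.27% of entries fell and 7.48% rose. The 10 skeletal muscle markers summed to 20.7 and 20.8 on palmitate replicates 1 and 2 and to 1.23 on replicate 3, against 1.58 to 1.72 with oleate and 1.71 to 1.82 in untreated cells; 9, 9 and 4 were well above background with palmitate, and 5 on each array of both other groups. Of the skeletal markers, Tnnt3, Myh4, Myh1, Mylpf and Casq1 were not well above background on any untreated or oleate array. The 8 measured markers of exocrine, stromal, immune, ductal and other islet cells summed to 49.9 to 50.6 with palmitate, 60.5 to 64.4 with oleate and 60.8 to 64.3 in untreated cells, with 3 to 4 well above background. These sums rest on few bright markers and do not show a change of each cell type listed. With palmitate replicates 1 and 2 left out, an alternative added after the data were seen, 5 of the 8 transporters rose: Slc7a3 (2.30 ± 0.12), Slc6a9 (1.58 ± 0.07), Slc1a5 (1.53 ± 0.14), Slc7a1 (0.60 ± 0.11) and Slc3a2 (0.55 ± 0.10). Slc7a5 (0.32 ± 0.09, adjusted p = 0.076) and Slc38a2 (0.34 ± 0.09, adjusted p = 0.068) then did not pass, with the lone palmitate array assumed to vary like the other groups. With palmitate replicate 3, the array alone on its slide, left out instead, which is also what a fixed block for slide gives, the same 7 rose. The part of the muscle transcripts in these results was not tested. 

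Oleate at the same dose and time gave 0 of 8 calls against untreated cells by limma, where 0.836% of all entries passed; 0 of 8 had an unadjusted p under 0.05, and the lowest was 0.12. The log2 changes were between -0.17 (Slc1a5) and 0.07 (Slc7a3), each with an SE of at most 0.10. Slc38a2 was the single gene whose ranges were apart, with 4.01, 4.0 and 3.96 on the oleate arrays and 4.16, 4.01 and 4.01 on the untreated arrays, where the highest oleate and the lowest untreated array round to the same value, and its change of -0.08 ± 0.05 did not pass. The count stayed at 0 under every alternative run.

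Palmitate against oleate, the direct test of the difference between the fatty acids, gave 7 of 8 genes higher and 0 lower, where 13.7% of entries passed, 7.48% as higher. All 8 genes had palmitate arrays above the oleate arrays. This only describes these arrays, because the share of all entries with ranges apart is not given here. Slc7a3 led with 2.17 ± 0.08 (adjusted p = 7.2e-06), having 5.16, 5.24 and 5.29 with palmitate and 3.19, 2.98 and 3.0 with oleate. Slc1a5 changed by 1.66 ± 0.10 (adjusted p = 5.4e-05) and had -0.50, -0.53 and -0.39 on the oleate arrays. Slc6a9 changed by 1.59 ± 0.05 (adjusted p = 2.4e-06) and had 1.90, 1.85 and 1.86 on the oleate arrays. The changes of Slc7a1, Slc3a2, Slc7a5 and Slc38a2 were 0.61, 0.58, 0.52 and 0.43. Slc1a4, at 0.17 ± 0.07 (adjusted p = 0.13), did not pass. In the order of levels, palmitate stood above oleate and untreated without overlap for the 7 genes that passed, and Slc1a4 had palmitate arrays that overlapped the untreated ones. Oleate and untreated arrays overlapped for the 7 genes other than Slc38a2. Both comparisons share the palmitate arrays.

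After 6 h of AP20187, 6 of the 8 transporters were higher and 0 lower than in mock-treated Fv2E-PERK cells. These calls came among many: 64.9% of 23388 entries passed at 6 h, 24.9% as higher and 40.0% as lower. At 12 h 6 were higher and 1 lower (67.7% of entries passed, 27.2% as higher and 40.5% as lower), at 24 h 7 were higher and 0 lower (67.4%, with 27.0% higher and 40.4% lower), and at 48 h 8 were higher and 0 lower (61.8%, with 27.2% higher and 34.6% lower). The members' median log2 change was 1.36, 1.46, 1.63 and 1.47 at the 4 times, against -0.23, -0.19, -0.20 and -0.07 for all entries. Slc7a1, Slc7a3, Slc7a5, Slc3a2, Slc6a9 and Slc1a5 were higher at all 4 times on all 5 scales, whereas the direction of Slc38a2 at 6 h and of Slc1a4 at 6 and 12 h turned with spike-in scaling. The 12 beta cell markers moved as well, with a summed linear signal of 2300 to 2550 in Fv2E-PERK mock, 1550 to 1670 after 6 h, 1580 to 1730 after 12 h, 1520 to 1750 after 24 h and 1920 to 2070 after 48 h, and 11 to 12 of them well above background. In the order of the 4 times, 10, 9, 9 and 7 of these markers were lower than in mock, and 1 was higher at each time.

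Markers of other cell types also moved in the PERK experiment. The 9 heart markers summed to 0.646 to 0.746 in Fv2E-PERK mock, 2.16 to 2.54 after 6 h, 1.86 to 2.11 after 12 h, 1.11 to 1.39 after 24 h and 1.06 to 1.16 after 48 h, with 2 to 5 well above background, against 0.582 to 0.784 in wild-type mock. A sum follows its brightest genes, and the heart list did not rise as a whole at 6 h. Its median signal was -6.123 to -5.722 in Fv2E-PERK mock and -6.705 to -6.505 after 6 h. The 10 skeletal markers summed to 1.16 to 1.17 in Fv2E-PERK mock, 0.628 to 0.704 after 6 h, 0.56 to 0.602 after 12 h, 0.619 to 0.635 after 24 h and 0.858 to 0.895 after 48 h, with 3 to 5 well above background, against 1.29 to 1.31 in wild-type mock. The 8 exocrine, stromal, immune, ductal and other islet markers summed to 64.5 to 66.0 in Fv2E-PERK mock, 34.0 to 35.1 after 6 h, 29.5 to 31.0 after 12 h, 33.7 to 36.9 after 24 h and 42.8 to 45.0 after 48 h, with 3 to 5 well above background, against 24.5 to 26.3 in wild-type mock. Only 3 of these 8 were tested, and the median signal of the list was -5.587 to -4.654 in Fv2E-PERK mock. The sums thus rest on few bright markers and do not show a change of each cell type listed. The part of these markers and of the beta cell markers in the results was not tested.

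Slc3a2, the shared heavy chain, had 4.46 and 4.56 in mock-treated Fv2E-PERK cells, then 6.27 and 6.2 after 6 h, 6.35 and 6.2 after 12 h, 6.72 and 7.0 after 24 h and 6.80 and 6.85 after 48 h. Its log2 change against mock was 1.73 ± 0.10 at 6 h (adjusted p = 5.3e-06) and 2.35 ± 0.10 at 24 h (adjusted p = 1.2e-06). The 24 and 48 h arrays overlapped each other and stood above the 6 and 12 h arrays, which also overlapped each other. Slc7a5, the LAT1 light chain, had 1.55 and 1.66 in mock, 3.03 and 2.96 after 6 h, 3.22 and 2.96 after 12 h, 3.35 and 3.12 after 24 h and 2.77 and 2.60 after 48 h. Its change was 1.39 ± 0.13 at 6 h, 1.63 ± 0.13 at 24 h and 1.08 ± 0.13 at 48 h (adjusted p = 3.7e-05, 1.3e-05 and 0.00014). Both partners thus rose by 6 h, and the 48 h arrays of Slc7a5 lay below its 6, 12 and 24 h arrays.

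Of the cationic carriers, Slc7a1 had 3.68 and 3.61 in mock, 5.17 and 5.13 after 6 h, 5.07 and 5.07 after 12 h, 5.30 and 5.16 after 24 h and 5.30 and 5.36 after 48 h. Its log2 change was between 1.43 and 1.69 at the 4 times (SE 0.13 at each), and 89.5% of the largest was present at 6 h. Slc7a3 had 2.45 and 2.26 in mock, 4.01 and 3.94 after 6 h, 4.33 and 4.50 after 12 h, 4.82 and 4.65 after 24 h and 5.01 and 4.91 after 48 h. The 4 times were in rising order with no overlap between neighbours, from a change of 1.62 ± 0.21 (adjusted p = 0.00027) at 6 h up to 2.60 ± 0.21 (adjusted p = 2.3e-05) at 48 h, and 62.0% of the largest was present at 6 h. No single step between neighbouring times passed for Slc7a3. The 48 h peak depends on the scale: from 24 to 48 h the change was 0.23 for Slc7a3 and 0.10 for Slc7a1, and with spike-in scaling -0.12 and -0.24 (adjusted p = 0.77 and 0.49).

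Slc6a9, the glycine transporter, had 2.41 and 2.63 in mock, 3.91 and 3.80 after 6 h, 4.11 and 4.04 after 12 h, 4.77 and 4.73 after 24 h and 4.65 and 4.63 after 48 h. Its change was 1.33 ± 0.14 (adjusted p = 7.3e-05) at 6 h and 2.23 ± 0.14 (adjusted p = 4.8e-06) at 24 h. Slc1a5 had -0.52 and -0.43 in mock, 0.58 and 0.55 after 6 h, 0.61 and 0.47 after 12 h, 1.26 and 1.07 after 24 h and 0.71 and 0.84 after 48 h, with changes of 1.04 ± 0.13 (adjusted p = 0.0002) at 6 h and 1.64 ± 0.13 (adjusted p = 1.5e-05) at 24 h. For both genes the 24 h arrays were the highest of the course and did not overlap those at 48 h, which were on another slide. The step from 24 to 48 h did not pass by limma for Slc6a9 (-0.11 ± 0.14, adjusted p = 0.54).

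Slc38a2 and Slc1a4 did not share that course. Slc38a2 had 4.12 and 3.95 in mock, 3.92 and 4.03 after 6 h and 4.27 and 4.09 after 12 h, all overlapping the mock arrays, and 4.89 and 4.57 after 24 h and 4.60 and 4.78 after 48 h, above them. Its changes of -0.06 ± 0.15 and 0.15 ± 0.15 at 6 and 12 h did not pass, and those of 0.70 ± 0.15 (adjusted p = 0.0032) at 24 h and 0.66 ± 0.15 (adjusted p = 0.0051) at 48 h did. Slc1a4 had 2.70 and 2.66 in mock, 2.57 and 2.38 after 6 h, 2.32 and 2.32 after 12 h, 2.95 and 2.64 after 24 h and 3.12 and 2.94 after 48 h. It was lowest at 12 h, with a change of -0.36 ± 0.12 (adjusted p = 0.029), did not pass at 6 h (-0.21) or 24 h (0.11), and was higher at 48 h by 0.35 ± 0.12 (adjusted p = 0.036). Neither call of Slc1a4 was firm. The 12 h call was lost on leaving out either mock array or either 12 h array (adjusted p of 0.074 to 0.1), and its value was 0.36 with spike-in scaling (adjusted p = 0.25). That scaling also gave Slc1a4 a rise at 24 h (1.05 ± 0.26, adjusted p = 0.0018) and Slc38a2 one at 12 h (0.87 ± 0.28, adjusted p = 0.014). The 48 h call was lost without mock replicate 1 or 2, 12 h replicate 1 or 2, or 48 h replicate 1 (adjusted p of 0.052 to 0.19).

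**Figure D2:**
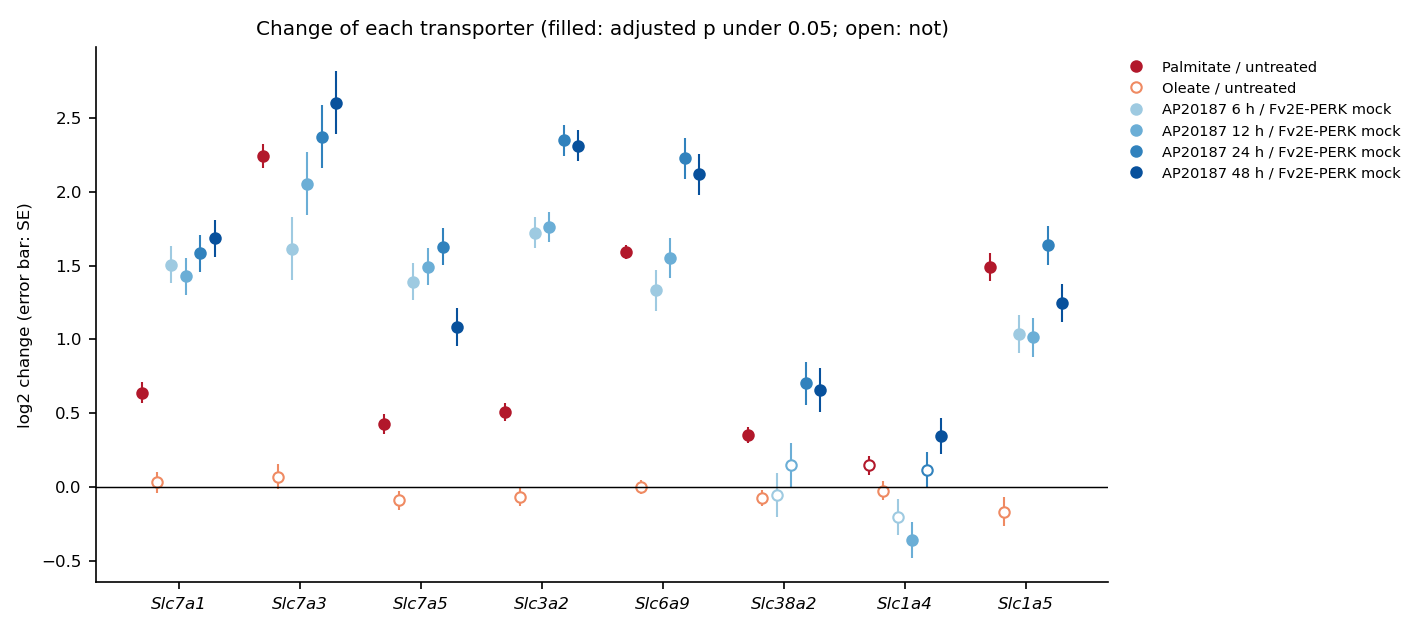
Log2 change (y axis) of each transporter (x axis) with palmitate or oleate against untreated cells and at 4 times of AP20187 against Fv2E-PERK mock, with SE bars; filled points passed an adjusted p under 0.05. Oleate points lie between -0.17 and 0.07, and Slc38a2 and Slc1a4 lie below the other genes at every AP20187 time; with spike-in scaling the 12 h point of Slc1a4 is positive.

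The 48 h arrays shared their slide with wild-type mock cells, which gave a control within the slide, though of another genotype. Against wild-type mock, all 8 transporters were higher at 48 h, where 63.8% of entries passed, 27.5% as higher and 36.3% as lower. The changes were 2.56 for Slc6a9, 2.52 for Slc7a3, 2.47 for Slc3a2, 2.16 for Slc7a1, 1.22 for Slc1a5, 1.19 for Slc7a5, 0.57 for Slc38a2 and 0.35 for Slc1a4. The last 2 calls were lost without wild-type mock replicate 1 (0.42 and 0.29, adjusted p = 0.065 and 0.15), that of Slc38a2 also without 48 h replicate 2 (0.49, adjusted p = 0.062) and that of Slc1a4 also without 48 h replicate 1 (0.27, adjusted p = 0.18). Both mock groups were compared directly as well. Fv2E-PERK mock was higher than wild-type mock for 1 of 8 genes and lower for 0, where 20.0% of entries passed, 9.23% as higher. That gene was Slc7a1, with 3.68 and 3.61 in Fv2E-PERK mock and 2.97 and 3.38 in wild-type mock, a change of 0.47 ± 0.13 (adjusted p = 0.033). The call was lost with spike-in scaling (adjusted p = 0.28), on leaving out either Fv2E-PERK mock array (0.51 and 0.43) or wild-type mock replicate 1 (0.27), and on leaving out any 6 h or 48 h array (adjusted p = 0.052 or 0.055), while without wild-type mock replicate 2 Slc6a9 also passed, at 0.65, against 0.44 ± 0.14 with all arrays (adjusted p = 0.059). Ranges of both mock groups overlapped for Slc7a3, Slc7a5, Slc38a2, Slc1a4 and Slc1a5.

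Between successive times, 0 of 8 transporters passed from 6 to 12 h by limma, where 14.7% of entries passed, 7.19% as higher and 7.5% as lower; 0 had an unadjusted p under 0.05, the lowest being 0.072 for Slc7a3 (0.44 ± 0.21), which passed on leaving out either wild-type mock array (adjusted p = 0.035). From 12 to 24 h, 5 rose and 0 fell, where 27.5% of entries passed, 15.0% as higher. These were Slc6a9 (0.68 ± 0.14, adjusted p = 0.01), Slc1a5 (0.63 ± 0.13, adjusted p = 0.011), Slc3a2 (0.59 ± 0.10, adjusted p = 0.0058), Slc38a2 (0.55 ± 0.15, adjusted p = 0.027) and Slc1a4 (0.48 ± 0.12, adjusted p = 0.023). The count was 1 without 12 h replicate 2, and 3 without 12 h replicate 1 or 24 h replicate 1. From 24 to 48 h, 2 fell and 0 rose, where 48.8% of entries passed, 23.1% as lower and 25.6% as higher; Slc7a5 fell by 0.54 (adjusted p = 0.0086) and Slc1a5 by 0.39 (adjusted p = 0.038). Without 48 h replicate 2, 0 fell. Without 24 h replicate 1, 0 fell as well (Slc7a5 -0.43, adjusted p = 0.052; Slc1a5 -0.30, adjusted p = 0.17) and Slc1a4 rose (0.39, adjusted p = 0.037). Without 48 h replicate 1, or any 1 Fv2E-PERK mock or 6 h array, Slc7a5 alone fell. At 48 h against 6 h, 5 were higher and 0 lower, where 60.8% of entries passed, 33.2% as higher: Slc7a3 (0.99), Slc6a9 (0.79), Slc38a2 (0.71), Slc3a2 (0.59) and Slc1a4 (0.55), of which 2 passed with spike-in scaling. Slc7a5, at -0.31 ± 0.13 (adjusted p = 0.065), passed as lower with the filter on all arrays (adjusted p = 0.043) and with trended robust variances (adjusted p = 0.021), and Slc1a5 passed as higher with the mean of all probes (0.49, adjusted p = 0.0086).

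The array carries a further probe for Slc6a9, Slc1a5 and Slc7a5. For Slc6a9 and Slc1a5 the dimmer probes gave changes of 1.61 ± 0.07 and 1.67 ± 0.09 with palmitate and of 2.20 ± 0.15 and 1.99 ± 0.12 at 24 h against mock, and the rises passed on both probes. The Slc1a5 probes differed at 48 h, where the change against mock was 1.85 ± 0.12 on the dimmer and 1.25 ± 0.13 on the brighter. From 24 to 48 h the dimmer probe did not pass (-0.15 ± 0.12, adjusted p = 0.34) while the brighter fell, and at 48 against 6 h the dimmer rose (0.76 ± 0.12, adjusted p = 0.00082) while the brighter did not pass (0.21 ± 0.13, adjusted p = 0.19). For Slc7a5 the probes disagreed. The dimmer probe had -0.68, -0.54 and -0.66 with palmitate and -0.71, -0.73 and -0.86 in untreated cells (0.14 ± 0.09, adjusted p = 0.33). Over the PERK course it had -1.21 and -1.08 in mock, -0.63 and -0.55 after 6 h, -0.20 and -0.72 after 12 h, -1.05 and -0.76 after 24 h and -0.23 and -0.43 after 48 h. All 8 AP20187 arrays stood above both mock arrays on this probe too, but none of the changes against mock passed (0.24 to 0.81, SE 0.38), and the 48 h arrays stood above the 24 h arrays rather than below. Its wild-type mock arrays, at 0.31 and -1.07, lay far apart and enter the same fit. The rise of Slc7a5 with palmitate and PERK, and its fall from 24 to 48 h, therefore rest on the brighter probe.

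**Figure D3:**
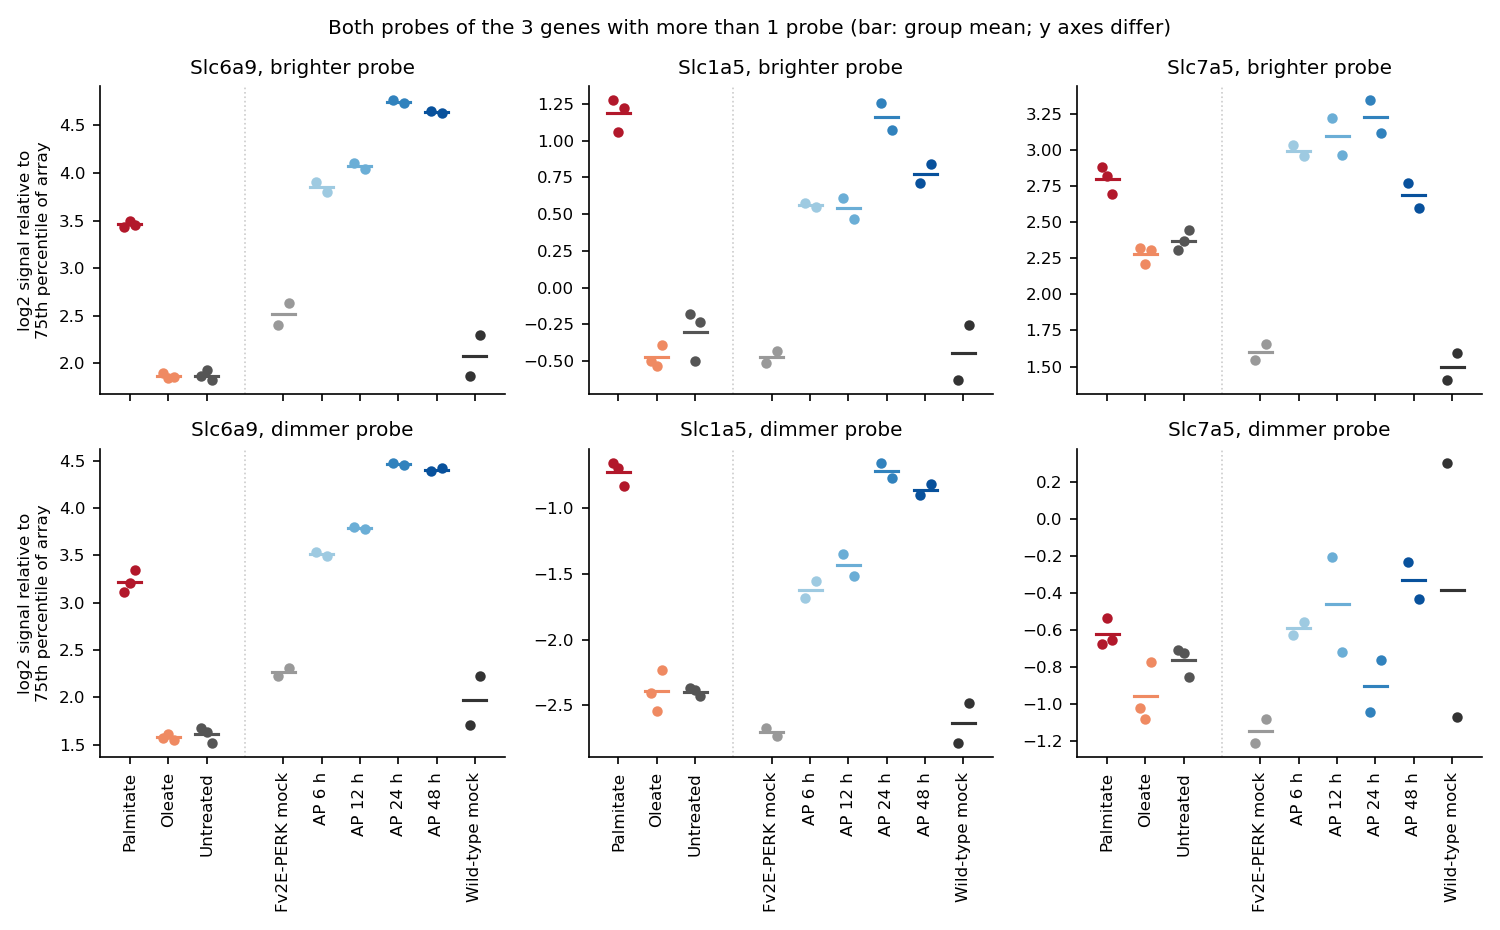
Log2 signal relative to the 75th percentile of the array (y axis, a scale of its own in each panel) for the brighter (top) and dimmer (bottom) probe of Slc6a9, Slc1a5 and Slc7a5, by group (x axis; AP is AP20187). Points are arrays and bars group means. Both Slc6a9 probes have their highest mean at 24 h, but the step from 24 to 48 h passed on neither. The brighter Slc1a5 probe drops more by 48 h than the dimmer one, and the dimmer Slc7a5 probe has its lowest AP20187 values at 24 h.

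Across the 12 PERK arrays the 28 pairs of transporters had Pearson's r of -0.121 to 0.987 (median 0.905), and the 15 pairs without Slc38a2 and Slc1a4 had r of 0.895 to 0.987 (median 0.954). These values describe arrays that share groups, slides and scaling. The order of the changes was not the same with palmitate and AP20187. Slc3a2 had the second largest change of the 8 at 24 h of AP20187 (2.35) and the fifth with palmitate (0.51). Slc7a1 was the sixth at 24 h (1.58) and the fourth with palmitate (0.64), while Slc7a3 led in both (2.38 and 2.24) and Slc1a4 was last in both. Doses, agents and control groups differ between the experiments, and the difference between them was not tested.

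Among 13086 other symbols tested in both experiments, those most like each transporter over the 12 PERK arrays were found by r. For Slc3a2 they were Shmt2 (0.998), a mitochondrial serine hydroxymethyltransferase, Aars (0.997), the alanyl-tRNA synthetase, and Snhg17 (0.996). For Slc7a5 they were Gpt2 (0.991), a mitochondrial alanine aminotransferase, Stk40 (0.989) and Cdca4 (0.989). Slc7a1 was most like Got1 (0.992), the cytosolic aspartate aminotransferase, Eftud2 (0.992) and Jdp2 (0.992), and Slc7a3 was most like Ddx21 (0.994), Scyl2 (0.993) and Zfp598 (0.989). Slc6a9 was most like Arhgap23 (0.994), Recql4 (0.991) and Pvr (0.99), and Slc1a5 was most like Usp39 (0.99), Adnp2 (0.988) and Rab39b (0.984). The values were lower for Slc38a2, with Dido1 (0.965), Kansl1 (0.95) and Nbr1 (0.948), and for Slc1a4, with C1qbp (0.971), Cct3 (0.941) and Wfikkn1 (0.938). With palmitate, whose arrays entered the filter on symbols but not r, 10 of these 24 symbols were higher, 1 was lower (Cdca4, -0.26 ± 0.05, adjusted p = 0.0072) and 13 did not pass, where 20.1% of all entries passed, 7.42% as higher and 12.6% as lower. The shares are of all entries of the fatty acid experiment, with or without a symbol. The share among the 13086 symbols is not given. Those that did not pass include Eftud2 (-0.06), Ddx21 (0.13) and Arhgap23 (-0.14). The 3 with the largest rises were Gpt2 (1.33 ± 0.23, adjusted p = 0.0063), Jdp2 (1.17 ± 0.11, adjusted p = 0.00041) and Shmt2 (1.03 ± 0.09, adjusted p = 0.00036).

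The ISR itself was followed by 12 marker genes. With palmitate 11 of 12 were higher and 0 lower (median 1.04), where 7.42% of all entries were higher and 12.6% lower. With oleate 0 passed, where 0.836% of entries passed. With the deposited matrix values 4 of 12 passed for palmitate, where 2.58% of entries passed. At the 4 times of AP20187, 24.9%, 27.2%, 27.0% and 27.2% of all entries were higher and 40.0%, 40.5%, 40.4% and 34.6% lower. Of the markers, 11 were higher and 1 lower at 6, 12 and 24 h, and 10 were higher and 1 lower at 48 h. The exception was Ddit4, named after its values were seen, at 0.06 ± 0.10 with palmitate (adjusted p = 0.69) and -1.13 ± 0.08 at 24 h. Atf4 changed by 0.62 ± 0.08 (adjusted p = 0.0017) with palmitate, by 0.81 ± 0.12 (adjusted p = 0.00038) at 24 h and by 0.26 ± 0.12 (adjusted p = 0.083) at 48 h, where it did not pass. Ddit3, the CHOP factor, changed by 1.00 ± 0.07 with palmitate and 1.55 ± 0.08 at 24 h, and Trib3, a pseudokinase, by 1.40 ± 0.08 and 3.44 ± 0.12. Asns, asparagine synthetase, changed by 0.61 ± 0.13 with palmitate and 0.86 ± 0.12 at 24 h.

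Other amino acid transporters, listed by name as ones of the plasma membrane, did not move as one group. Where these proteins sit in the cell, Slc6a17 among them, was not measured. Of 31 listed, 30 were on the array and 17 were tested in the fatty acid experiment. With palmitate 3 rose and 3 fell (median -0.04), 35.3% of the list against 20.1% of all entries. The largest rise was that of Slc7a11, the cystine and glutamate exchanger xCT, which was well above background on 3 of 3 palmitate arrays and on 0 of 3 untreated arrays. It was at least 4.29-fold higher, where the untreated level was taken, on each array, as the larger of its own signal and the dimmest signal of any probe well above background. The limma adjusted p of 0.00051 belongs to the fitted log2 change of 3.08 and not to this bound. That fit uses untreated signals not well above background, and Slc7a11 entered the test only through the palmitate arrays. Slc38a1, encoding SNAT1, rose by 0.47 ± 0.09 (adjusted p = 0.012) and Slc6a17 by 0.38 ± 0.05 (adjusted p = 0.0014). Slc7a2, the cationic carrier CAT-2, changed by -0.63 ± 0.08 (adjusted p = 0.0022) and fell, as did Slc38a5, encoding SNAT5 (-0.47 ± 0.08), and Slc43a2, encoding LAT4 (-0.46 ± 0.06). Slc6a17, Slc38a5 and Slc43a2 were named after their values were seen, and with spike-in scaling 0 of the list fell. Against oleate, Slc7a11 was at least 5.19-fold higher with palmitate and was the 1 rise, with 4 falls: Slc7a2 (-0.45 ± 0.08), Slc38a5 (-0.43 ± 0.08), Slc43a2 (-0.41 ± 0.06) and Slc16a10 (-0.24 ± 0.06), the last 2 named after their values were seen. With spike-in scaling or the deposited matrix values 0 of the list fell against oleate. With oleate against untreated, Slc6a17 was the 1 rise, of 0.28 ± 0.05 (adjusted p = 0.04), and 0 fell.

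In the PERK experiment 19 of the other transporters were tested. In the order of the 4 times, 5, 5, 6 and 7 were higher than in mock and 11, 10, 9 and 9 were lower, with a median of -0.77 at 6 h and 0.12 at 48 h. The share called was 84.2%, 78.9%, 78.9% and 84.2% of the list, against 64.9%, 67.7%, 67.4% and 61.8% of all entries. With spike-in scaling 5, 6, 9 and 9 were higher and 3, 5, 3 and 5 lower. Slc7a11 was not well above background on either mock array and entered the test only through AP20187 arrays. It was at least 7.0-fold higher at 6 h, 9.55-fold at 12 h, 16.2-fold at 24 h and 12.4-fold at 48 h. The others higher at 6 h, named after their values were seen, were Slc1a7 (1.11 ± 0.20), Slc7a7 (0.91 ± 0.13), Slc43a2 (0.67 ± 0.11) and Slc3a1 (0.50 ± 0.15). Slc3a1 encodes rBAT, the heavy chain homologous to that of Slc3a2. It changed by 2.09 ± 0.15 at 48 h and was well above background on 1 of 2 mock arrays. Slc6a19, encoding the neutral carrier B0AT1, changed by -2.01 ± 0.12, -2.79 ± 0.12, -2.75 ± 0.12 and -1.99 ± 0.12 at the 4 times. Slc38a5 changed by -2.02 ± 0.15, -2.41 ± 0.15 and -2.34 ± 0.15 at 6, 12 and 24 h. Against the other mock group, Slc38a5 was higher in Fv2E-PERK mock than in wild-type mock (1.58 ± 0.15), as was Slc38a1 (2.98 ± 0.18, well above background on 1 of 2 wild-type mock arrays), and Slc6a19 was lower (-0.76 ± 0.12).

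Of the lysosomal and mitochondrial amino acid carriers, 16 of 17 were on the array and 14 were tested. With palmitate Slc38a9, encoding a lysosomal arginine sensor, was the 1 rise, of 0.21 ± 0.06 (adjusted p = 0.034). The 2 falls were those of Slc25a38, a mitochondrial glycine carrier, with a change of -0.40 ± 0.04 (adjusted p = 0.00084), and of Slc25a29, with -0.31 ± 0.08 (adjusted p = 0.025). Over the 4 times of AP20187, 2, 1, 3 and 4 were higher than in mock and 7, 9, 5 and 5 were lower. These are 64.3%, 71.4%, 57.1% and 64.3% of the list, against 64.9%, 67.7%, 67.4% and 61.8% of all entries, and the 3 calls with palmitate are 21.4%, against 20.1%. With spike-in scaling 4, 4, 9 and 6 were higher and 1, 1, 0 and 0 lower, so the balance of this list turned. Slc25a29 was higher by 1.69 ± 0.10 at 6 h, 1.25 ± 0.10 at 12 h and 0.80 ± 0.10 at 24 h. Ctns, the lysosomal cystine exporter, changed by -2.30 ± 0.10 at 6 h and -1.89 ± 0.10 at 12 h. Slc38a7, encoding the lysosomal glutamine carrier SNAT7, was higher by 1.28 ± 0.14 at 24 h and 2.06 ± 0.14 at 48 h, and Slc7a14 changed by -1.21 ± 0.16, -1.07 ± 0.16 and -0.93 ± 0.16 at 12, 24 and 48 h.

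**Figure D4:**
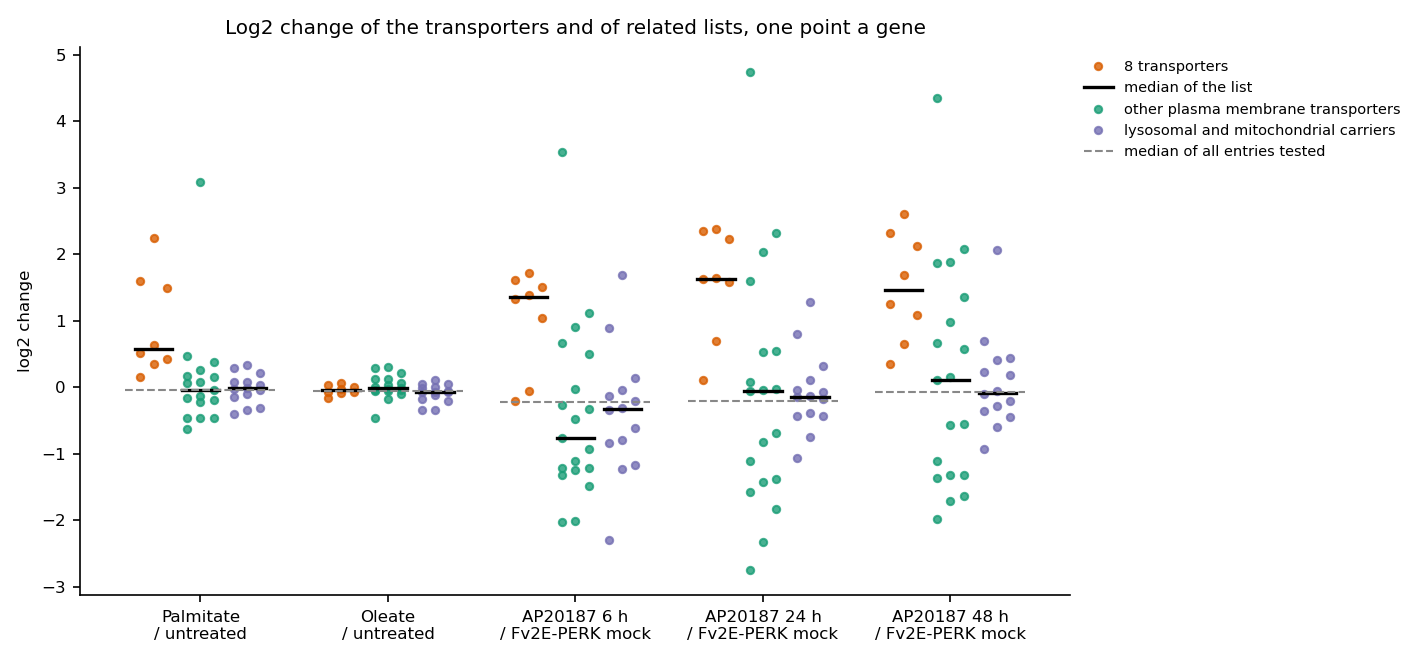
Log2 change (y axis) of single genes with palmitate or oleate against untreated cells and at 6, 24 and 48 h of AP20187 against Fv2E-PERK mock (x axis), for the 8 transporters, the other plasma membrane transporters and the lysosomal and mitochondrial carriers, with list medians (black) and the median of all entries tested (dashed). The medians of the 8 lie at 0.57 with palmitate and 1.36 to 1.63 at these times, and the topmost point of the second list is Slc7a11, whose fitted value is no bound; with spike-in scaling all medians of the AP20187 columns lie higher.

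Promoter sequence was read for the transporters because 6 of them moved together. RefSeq promoters (windows of 300 bases around a transcript start, most of them before it, GRCm38.p6) were at hand for 5 of the 8 genes, as 8 windows, and not for Slc7a3, Slc7a5 and Slc1a5, which are 3 of those 6. They were searched on both strands for TGATGNAA, the letters of the element that ATF4 with a C/EBP partner is known to bind, and for CACGTG, the E-box. Of 32851 promoters, 1304 (3.97%) held TGATGNAA and 2349 (7.15%) held CACGTG; the motifs do not overlap each other. Of the 8 windows, 1 held TGATGNAA, that of Slc1a4, which is not among the 6, and 0 held CACGTG. Its window is shown with the match in capitals, on the reverse strand and beginning 4 bases before the start, and beside it that of Slc3a2, which had one of the largest changes with AP20187 and no match. A match is a description of letters, and no match says only that these letters are not in this window.
Slc1a4, chr11:20332664-20332963, minus strand: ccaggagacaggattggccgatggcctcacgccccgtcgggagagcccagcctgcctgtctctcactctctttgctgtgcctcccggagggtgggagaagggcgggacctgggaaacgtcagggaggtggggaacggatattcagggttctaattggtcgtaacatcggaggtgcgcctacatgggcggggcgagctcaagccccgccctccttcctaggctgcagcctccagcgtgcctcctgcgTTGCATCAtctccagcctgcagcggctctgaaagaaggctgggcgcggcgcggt
Slc3a2, chr19:8713848-8714147, minus strand: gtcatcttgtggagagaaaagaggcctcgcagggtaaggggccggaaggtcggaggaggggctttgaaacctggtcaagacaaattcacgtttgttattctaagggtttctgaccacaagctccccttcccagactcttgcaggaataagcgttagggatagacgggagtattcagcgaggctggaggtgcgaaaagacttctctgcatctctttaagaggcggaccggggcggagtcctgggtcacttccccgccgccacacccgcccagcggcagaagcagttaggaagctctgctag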

How the data were processed

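The arrays measured RNA of MIN6m9 cells in 9 groups, taken with their replicate numbers from the sample titles (1 wild-type mock array has another number in its source name; the title was used). Per the file headers, the authors' spot intensity, background-subtracted, came from Agilent Feature Extraction 10.7.1.1; per the labels' protocols, RNA was labelled with Cy3. The authors' deposited series matrix follows the scanner values on a log2 scale after a baseline per probe and a constant per array, neither of which is known; its column medians were -0.27, -0.23 and -0.26 (palmitate), 0.35, -0.13 and -0.18 (oleate), 0.26, 0.01 and -0.26 (untreated), 0.19 and 0.33 (Fv2E-PERK mock), -0.25 and -0.12 (6 h), -0.28 and -0.20 (12 h), -0.32 and -0.14 (24 h), -0.20 and -0.18 (48 h) and 0.12 and 0.09 (wild-type mock).

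Control spots and outlier spots (108 to 379 an array) were left out, and 0 spots were saturated. Spots of one probe were averaged, and the log2 intensity was set relative to the 75th percentile of its array. Probes were named by matching unversioned accessions to RefSeq (26576 of 55681 matched a symbol), and the brightest probe stood for a gene, giving 37208 entries. An entry was tested if 1 or more groups had it well above background on every array. The test was limma 3.58.1 (R 4.3.3; lmFit, eBayes, a mean per group, all groups of an experiment in 1 fit), with Benjamini-Hochberg adjustment over all entries. The fit was first tested on simulated data.

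The members, lists and tests were chosen with earlier results of these data known. Named are the 8 transporters, up to 3 genes per list and comparison with the largest change past the threshold, the 3 genes most alike to each transporter, and Atf4, Ddit3, Trib3 and Asns; others are marked as named after their values were seen. Alternatives were normexp on the median intensity (the mean was not used here), quantile and spike-in scaling, the matrix, 2 filters, the mean of all probes, trended robust variances, a replicate block, a slide block and leaving out arrays. The slide block could not be fitted in the PERK experiment. Deviations of same-numbered replicates from their group means had r of -0.027 to 0.035 in the fatty acid and -0.007 to 0.131 in the PERK experiment. With 2 arrays a group, both replicate numbers give the same r. The numbers are not stated to pair arrays, and these values cannot decide whether they do.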

Additional observations from a re-analysis of the deposited data

How the results depend on the processing

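Of 2160 values of single transporters under alternatives, 2083 stayed on their side of the threshold, 63 no longer passed, 12 passed anew and 2 turned. Direction was read only where a value passed with the main processing, the alternative or both. Among the 2083 are 839 that passed neither way, and 50 of those changed sign, among them Slc38a2 at 6 h against mock. The 2 that turned were Slc1a4 at 12 h against mock with spike-in scaling (0.36) and Slc7a5 at 48 against 24 h with the mean of all probes (0.014). Both had passed with the main processing, and neither passed by limma with the changed sign (adjusted p = 0.25 and 0.96). With the matrix values 3 of 8 were called for palmitate against untreated and 3 against oleate, where 2.58% and 1.92% of all entries passed; the cause was not tested. At 24 against 12 h the count was 2 with spike-in scaling and 3 without the filter on dim probes, and quantile scaling lost Slc38a2 (0.48, adjusted p = 0.058). Without the filter Slc1a4 was lost at 48 h against Fv2E-PERK mock (adjusted p = 0.054) and against wild-type mock (adjusted p = 0.055). At 48 against 24 h the count was 1 with quantile scaling, 1 without the filter and 0 with the mean of all probes. At 48 against 6 h it was 2 with spike-in scaling. For Fv2E-PERK mock against wild-type mock it was 2 with normexp, 0 with spike-in scaling, 0 without the filter, 2 with the filter on all arrays and 2 with trended robust variances. Leaving out each array in turn gave 7 to 7 calls for palmitate against untreated and against oleate, 0 to 0 for oleate, 6 to 6 at 6 h, 6 to 7 at 12 h, 7 to 7 at 24 h and 7 to 8 at 48 h, 0 to 1 for 12 against 6 h, 1 to 5 for 24 against 12 h, 0 to 2 for 48 against 24 h, 5 to 5 for 48 against 6 h and 0 to 2 for the mock groups. A lone array left in a group was assumed to vary like the other groups. The replicate block gave 7, 0 and 7 calls in the fatty acid comparisons and 6, 7, 7 and 8 at the 4 times against mock, and changed no call of a transporter. With 2 or 3 arrays a group, small changes such as those of Slc1a4 and Slc38a2 are where the number of arrays limits the calls.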
